A study of Mus musculus with 13 samples.

Results

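The NCoR and SMRT binding sites of mouse embryonic stem cells (ESCs) were compared with the H3K27ac peaks of the same cell type. The members are all intervals of the 3 ESC peak lists, taken by library and not by any measured value. The lists held 3687 NCoR peaks, 4324 SMRT peaks and 25499 H3K27ac peaks, of 164043 peaks in the 12 lists of the series. NCoR and SMRT peaks that overlapped were merged, which left 5245 co-repressor sites, of which 2766 carried both co-repressors, 921 NCoR only and 1558 SMRT only. A gene was counted as having a site or H3K27ac where a peak centre lay within 1 kb of one of its annotated ends, over 21887 protein-coding genes.

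The study mapped co-repressors and histone acetylation by chromatin immunoprecipitation and sequencing (ChIP-seq) in 13 libraries, 1 per group, on the route of fibroblasts to pluripotency. The ESCs were of strain C57BL/6J, at day 0 and without treatment, and ESC maintenance is described as in N2B27 medium with LIF and the inhibitors CHIR99021 and PD0325901. The other lists, used here only as readouts, came from C57BL/6J-OG2 cells. They were NCoR and SMRT at day 9 of reprogramming with the factors OSKM, H3K27ac at days 5, 9 and 13 of reprogramming with OSKM together with either HDAC3-YF or a FLAG control, and H3K27ac in untreated fibroblasts (MEFs). HDAC3-YF is an HDAC3 mutant without deacetylase activity. No use was made of the ESC input. The labels name neither a clone nor a passage of the ESCs, no source used here gives the read depth behind the lists, and with 1 library per group no value has a spread between cultures and no test was made. The 95% intervals below are Wilson intervals that treat sites, peaks or genes as independent and cover counting error only.

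NCoR and SMRT are large related scaffold proteins that lack a DNA-binding domain of their own. They are recruited by unliganded or repressive nuclear receptors and by other transcription factors, and they carry the histone deacetylase HDAC3, whose activity depends on contact with them. H3K27ac is the acetylation of lysine on the tail of histone H3 that marks active promoters and enhancers, one of the marks a deacetylase complex can remove. In ESCs such acetylation is known at pluripotency genes and at the promoters of genes that every dividing cell uses.

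The H3K27ac list carried the marks of its label. All 10 ESC markers, among them Pou5f1, Sox2, Nanog and Esrrb, had H3K27ac within the gene body or 20 kb of it, with 64 peaks in ESCs against 11 in MEFs. Of 8 fibroblast markers 3 had any, Col1a1, Thy1 and Pdgfrb, and Col3a1, Twist2, Prrx1, Postn and Col1a2 had 0 in ESCs. The 8 together had 3 peaks in ESCs against 30 in MEFs. The 6 primitive endoderm markers had 6 peaks in ESCs against 7 in MEFs. Gata4, Gata6 and Sox17 held these ESC peaks, and Sox7, Dab2 and Pdgfra were at 0 in ESCs.

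Chromosome 8 stood apart in the co-repressor lists. It held 686 sites, or 41.3 per 100 H3K27ac peaks, against 18.0 to 21.8 on the 18 other autosomes, and the X chromosome held 11 sites, or 1.87 per 100. The day 9 co-repressor lists did not show this on chromosome 8, with 38.6 sites per 100 H3K27ac peaks of the day 9 FLAG list against 31.4 to 42.3 on the other autosomes. The ESC H3K27ac list held 1.17 peaks per MEF peak on chromosome 8, against 0.824 to 1.07 on the other autosomes and 1.18 on the X chromosome. The part of chromosome copy number or of any other property of these cells in this was not tested. Of the genes with H3K27ac on chromosome 8, 53.0% also had a site, against 25.4% elsewhere, so the counts of gene classes and of gene lists with members on this chromosome are given with and without it below, where 25.4% takes the place of 27.02% over all acetylated genes. The share of sites that lay near H3K27ac was 65.5% on chromosome 8 (61.8 to 68.9%) and 68.5% elsewhere (67.1 to 69.8%).

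**Figure D1:**
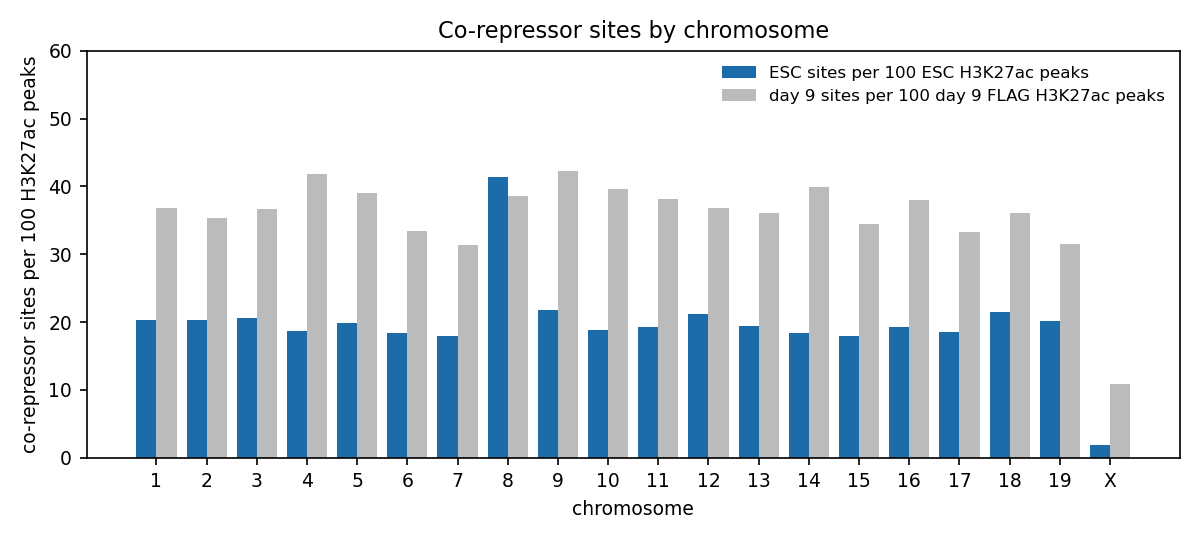
Co-repressor sites per 100 H3K27ac peaks by chromosome (bars, from 0), for ESCs (blue) and day 9 OSKM cultures with FLAG H3K27ac as the denominator (grey). The ESC bar of chromosome 8 stands at 41.3, the other ESC autosomes lie between 18.0 and 21.8, and the X chromosome is at 1.87.

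The promoters below show the arrangements that the comparison turns on. Each is 300 bases of the RefSeq promoter table (GRCm38.p6, the build whose coordinates mm10 shares), from 250 bases before the transcription start to 50 after it, written 5′ to 3′ on the strand of the gene. Capitals mark the bases that lie inside a deposited co-repressor interval. The first 4 belong to genes with both a site and H3K27ac, and the last 2 to genes counted as having a site only. Of these 2, Clock is a borderline case, since its printed start lies inside the annotated gene and has H3K27ac 258 bp past it, while no centre lies within 1 kb of the annotated gene ends.
Hnrnpdl: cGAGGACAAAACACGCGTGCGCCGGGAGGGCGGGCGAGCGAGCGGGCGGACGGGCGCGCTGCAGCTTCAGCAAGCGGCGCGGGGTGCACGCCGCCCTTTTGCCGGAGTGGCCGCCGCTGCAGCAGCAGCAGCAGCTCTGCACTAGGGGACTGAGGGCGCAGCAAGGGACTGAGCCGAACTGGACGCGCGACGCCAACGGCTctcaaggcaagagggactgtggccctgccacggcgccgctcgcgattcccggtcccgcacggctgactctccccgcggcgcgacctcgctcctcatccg
Psmd12: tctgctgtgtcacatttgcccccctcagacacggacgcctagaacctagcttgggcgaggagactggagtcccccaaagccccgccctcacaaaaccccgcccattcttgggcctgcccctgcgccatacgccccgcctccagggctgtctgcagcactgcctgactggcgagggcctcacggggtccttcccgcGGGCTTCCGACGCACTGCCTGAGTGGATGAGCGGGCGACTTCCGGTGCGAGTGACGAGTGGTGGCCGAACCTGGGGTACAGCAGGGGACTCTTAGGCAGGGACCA
Hdac2: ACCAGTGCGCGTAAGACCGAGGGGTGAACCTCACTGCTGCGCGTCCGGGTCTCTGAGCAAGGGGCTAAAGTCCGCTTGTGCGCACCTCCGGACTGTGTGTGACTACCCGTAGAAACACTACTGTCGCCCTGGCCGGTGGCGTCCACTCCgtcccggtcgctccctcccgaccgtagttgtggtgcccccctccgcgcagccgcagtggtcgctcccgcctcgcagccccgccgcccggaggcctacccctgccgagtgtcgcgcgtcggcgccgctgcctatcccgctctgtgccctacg
Dnmt3b: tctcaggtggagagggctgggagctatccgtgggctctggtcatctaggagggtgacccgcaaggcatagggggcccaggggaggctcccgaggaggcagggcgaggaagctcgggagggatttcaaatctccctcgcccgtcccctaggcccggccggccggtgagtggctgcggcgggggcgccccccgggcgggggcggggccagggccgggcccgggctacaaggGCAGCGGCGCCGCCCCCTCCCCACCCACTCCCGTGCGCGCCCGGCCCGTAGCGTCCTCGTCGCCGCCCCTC
Clock: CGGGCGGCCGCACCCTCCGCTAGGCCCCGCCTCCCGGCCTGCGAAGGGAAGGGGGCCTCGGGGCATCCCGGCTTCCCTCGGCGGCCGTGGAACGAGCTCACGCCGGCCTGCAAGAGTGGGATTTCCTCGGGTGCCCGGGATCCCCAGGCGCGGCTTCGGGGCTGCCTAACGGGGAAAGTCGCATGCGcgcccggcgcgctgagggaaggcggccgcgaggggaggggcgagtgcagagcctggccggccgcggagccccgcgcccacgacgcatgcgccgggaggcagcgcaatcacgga
Unc5c: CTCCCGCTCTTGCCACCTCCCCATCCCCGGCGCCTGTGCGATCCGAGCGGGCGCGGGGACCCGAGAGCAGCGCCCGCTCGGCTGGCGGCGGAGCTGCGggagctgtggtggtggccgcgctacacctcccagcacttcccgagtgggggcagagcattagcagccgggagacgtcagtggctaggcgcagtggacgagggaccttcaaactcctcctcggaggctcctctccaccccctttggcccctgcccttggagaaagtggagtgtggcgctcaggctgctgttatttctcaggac

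The window of Hnrnpdl, an RNA-binding protein of the hnRNP family, is chr5:100039173-100039472 on the minus strand. A whole interval of 200 bases with both co-repressors lies inside it, centred 149 bp before the listed start, with H3K27ac 262 bp before that start. The listed start and this site are inside the annotated gene, the site 565 bp from the annotated 5′ end. Another Hnrnpdl site with both co-repressors lies outside the window. That of Psmd12, a subunit of the proteasome lid, is chr11:107479278-107479577 on the plus strand, with the site centred 44 bp past the start and the nearest H3K27ac centre 314 bp past it. For the deacetylase gene Hdac2 the window is chr10:36974294-36974593 on the plus strand. The site lies 202 bp before the listed start and H3K27ac 219 bp past it. This listed start is inside the annotated gene, and both centres lie past the annotated 5′ end, the site by 45 bp. Dnmt3b, a de novo DNA methyltransferase of early embryos, has its window at chr2:153649199-153649498 on the plus strand, with a site 78 bp and H3K27ac 318 bp past the start. Clock, a core transcription factor of the circadian oscillator, is shown at chr5:76304743-76305042 on the minus strand, with 187 bases inside the site, whose centre lies 163 bp before the start. Unc5c, a netrin receptor of axon guidance, is shown at chr3:141465314-141465613 on the plus strand, with 98 bases inside the site and the nearest H3K27ac centre 703574 bp past the start.

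Most co-repressor sites in ESCs lay within 1 kb of an H3K27ac centre, and 36.3% of them overlapped an H3K27ac interval by at least 1 bp. Over all 5245 sites the median distance between the centre of a site and the nearest H3K27ac centre was 317 bp, with quartiles of 130 and 8813 bp. Within 1 kb of an H3K27ac centre lay 68.1% of the sites (66.8 to 69.3%), within 500 bp 60.5% (59.1 to 61.8%) and within 200 bp 36.4% (35.1 to 37.7%). Between 1 and 2.5 kb the share grew only to 70.3%, and 88.3% of the sites had a peak within 50 kb. The 1 kb limit fell in a sparse range, with 26 sites whose nearest centre was 900 to 1000 bp away and 12 at 1000 to 1100 bp. All H3K27ac intervals are 200 bp wide, and only 60 of 25478 neighbouring pairs of centres were closer than 1 kb, so a stretch of acetylation that runs past a site is written as 1 interval at some distance from it.

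The kinds of site differed in this distance. The sites with both NCoR and SMRT had a median of 214 bp, against 1000 bp for NCoR-only and 1240 bp for SMRT-only sites. H3K27ac lay within 1 kb of 84.8% of the sites with both (83.4 to 86.1%), of 50.1% of those with NCoR only (46.8 to 53.3%) and of 49.1% of those with SMRT only (46.6 to 51.6%). The NCoR and SMRT lists carry identical scores at all 2743 identical intervals, so the 2 lists were not scored independently of each other, and a site with 1 co-repressor is not an independent observation that the other was absent. Position relative to genes went with the same difference. At a gene end 92.1% of the sites had H3K27ac within 1 kb (91.0 to 93.0%), with a median distance of 195 bp, and away from gene ends 37.7% (35.8 to 39.7%), with a median of 8130.5 bp. Within each position the kinds kept their order, with medians of 174, 214 and 262 bp at gene ends and of 456.5, 16892 and 18119 bp away from them for sites with both, with NCoR only and with SMRT only. The day 9 sites, set against the day 9 FLAG list, had a median of 207 bp, a value between other libraries with a list of other length.

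**Figure D2:**
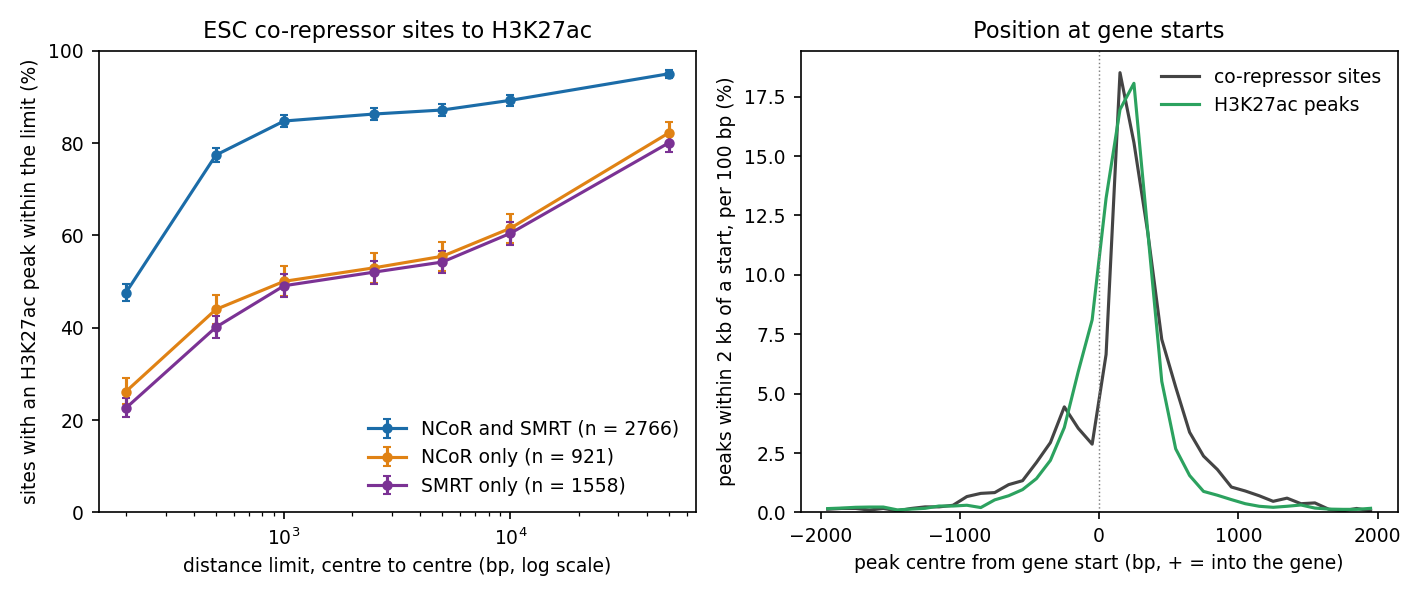
Left, share of ESC co-repressor sites (%) with an H3K27ac centre within a distance limit (bp, log axis), by kind of site, with 95% Wilson intervals. Right, position of co-repressor and H3K27ac centres relative to the gene start (bp, positive into the gene) as a percentage of the centres within 2 kb, in steps of 100 bp. The curve of sites with both co-repressors reaches 84.8% at 1 kb and the curves of the other sites about 50%, and both profiles at starts peak inside the gene.

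At gene starts the sites and the acetylation lay on the same side. A start with its strand was available for 17492 of the genes, none of them on chromosome 18. Among 2825 pairs of a site and a start within 1 kb, the centre of the site lay a median of 207 bp inside the gene, with quartiles of 61 and 373 bp, and 78.0% lay downstream of the start (76.4 to 79.5%). H3K27ac centres lay a median of 166 bp inside the gene and 74.9% of them downstream (74.03 to 75.83%). The 100 bp just before the start held 2.87% of the site centres within 2 kb, against 18.5% between 100 and 200 bp past it and 4.44% between 200 and 300 bp before it. The nearest H3K27ac centre lay farther into the gene than the site at 41.9% of 2379 sites (39.9 to 43.9%). For sites with both co-repressors the median was 207 bp, for NCoR only 187 bp and for SMRT only 229 bp.

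Seen from the acetylation, a minority of H3K27ac peaks had a co-repressor site, and those were more often at the highest score than the others. A site lay within 1 kb of 12.9% of the ESC H3K27ac peaks (12.5 to 13.4%), of 26.4% of those at a gene end (25.6 to 27.3%) and of 4.75% of those away from gene ends (4.43 to 5.10%). The deposited score of the H3K27ac list is the authors' own, has a ceiling of 200 and no stated scale, so it serves only for ranking peaks inside that list. Of the peaks with a site within 1 kb, 60.6% were at the ceiling (58.9 to 62.3%), against 19.1% of the others (18.6 to 19.6%). Peaks at gene ends score higher in general, so the split was made by position. At gene ends 66.7% of the peaks with a site (64.8 to 68.5%) and 41.5% of those without (40.3 to 42.6%) were at the ceiling. Away from gene ends the shares were 40.1% with a site (36.6 to 43.6%) and 8.54% without (8.11 to 9.00%), and the median scores were 97.6 with a site and 17.7 without. Without chromosome 8 the shares were 66.1% with a site and 41.4% without at gene ends, and 40.7% with a site and 8.48% without away from them. The score did not decline gradually with distance. At gene ends the share at the ceiling was 64.4% within 200 bp of a site, 69.6% at 200 to 500 bp and 71.0% at 500 bp to 1 kb, then 43.2% at 1 to 2.5 kb, where only 37 peaks lay, and 41.5% beyond 50 kb.

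**Figure D3:**
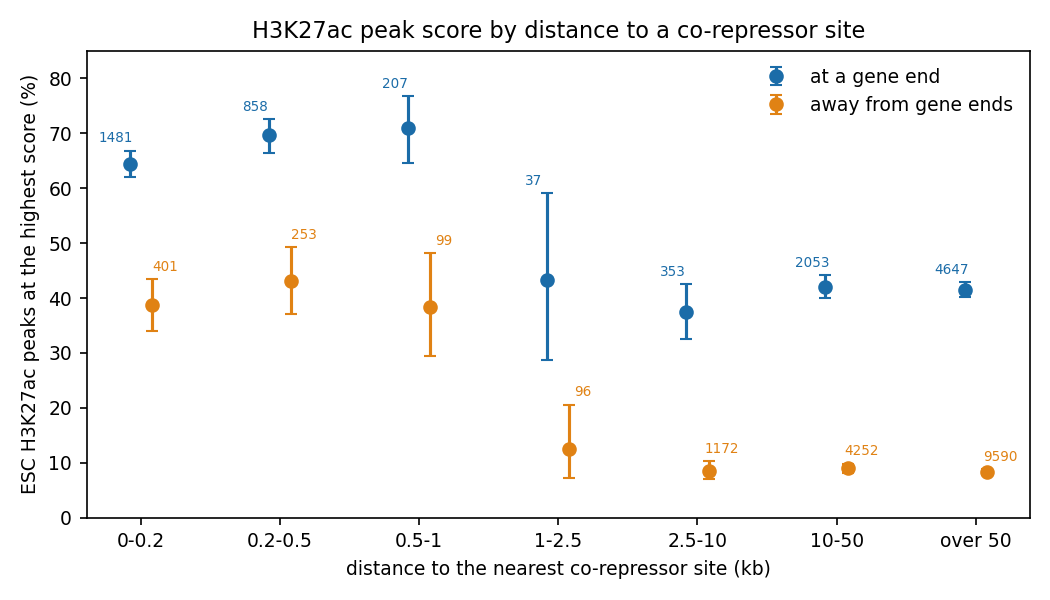
Share of ESC H3K27ac peaks at the highest deposited score (%) by the distance of the peak to the nearest co-repressor site (kb), at gene ends (blue) and away from them (orange), with 95% Wilson intervals and the number of peaks above each point. Within 1 kb of a site the points lie at 64.4% or more at gene ends and at 38.4% or more away from them, and beyond 2.5 kb no point exceeds 42.1% and 8.98%.

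By gene, a co-repressor site came almost always with H3K27ac, and H3K27ac mostly without a site. Of the 21887 protein-coding genes, 3113 had a site at an end, which is 14.2% of all, and 10633 had H3K27ac, which is 48.6%. Both were present at 2873 genes (13.1% of all), a site without H3K27ac at 240 (1.10%), H3K27ac without a site at 7760 (35.5%) and neither at 11014. H3K27ac was thus present at 92.3% of the genes with a site (91.3 to 93.2%) and at 41.3% of the genes without one (40.6 to 42.0%), and a site at 27.02% of the genes with H3K27ac (26.2 to 27.9%) and at 2.13% of those without (1.88 to 2.42%). The share with H3K27ac was 95.4% of 2093 genes that had a site with both co-repressors, 91.1% of 436 with a NCoR-only site and 85.7% of 736 with a SMRT-only site. Where a gene had both, the closest pair of centres was a median of 167 bp apart, with quartiles of 75 and 299 bp, and 99.0% of the pairs were within 1 kb. Leaving out chromosome 8 gave 2542 genes with both, 217 with a site only and 7467 with H3K27ac only. The number with a site only moved more than the others with the settings. It was 97 genes where only sites with both co-repressors were used and 533 with the higher-scoring 50% of the H3K27ac peaks. Over all annotated genes it was 376, but of 49943 genes in place of 21887.

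Most genes with both had 1 site at their ends, and a small number had several. The count was 1 site at 2624 genes, 2 at 236, 3 at 12 and 4 at 1. The gene with 4 was Cog8, a subunit of the Golgi tethering complex, whose start lies head to head with that of Nip7, a ribosome biogenesis factor with 3 of the same sites. The next by number of sites and then of H3K27ac peaks were Rbm34, an RNA-binding protein, Birc6, a ubiquitin ligase of the inhibitor of apoptosis family, Mgat2, an enzyme of N-glycan synthesis, and Nsd3, a histone methyltransferase. Cog8, Nip7, Rbm34 and Nsd3 are on chromosome 8. Ro60 and Uchl5 share 3 sites on chromosome 1 between chr1:143776826-143777025 and chr1:143777546-143777745, and Mgat2 and Rpl36al share 3 on chromosome 12. In all, 442 of the 2931 sites at gene ends counted for more than 1 gene. All 10 genes of this group, of which Me1, a malic enzyme of the cytosol, is the last, had a day 9 site, MEF H3K27ac and H3K27ac in all 6 OSKM lists, and their highest H3K27ac score was 200. Among all genes with both, 59.1% had a day 9 site, 92.9% MEF H3K27ac, 81.8% H3K27ac in all 6 OSKM lists and 68.9% the score at the ceiling, and the pairs that share sites are not separate observations.

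The gene lists showed where sites and acetylation parted. Each list is described by its counts beside the share over all protein-coding genes, 14.2% with a site and 27.02% of the acetylated genes with a site, and no list was tested. Among the lists with at least 5 acetylated members, the SR and hnRNP splicing factors and the proteasome subunits had the highest shares of sites. Among the SR and hnRNP splicing factors 14 of 25 acetylated genes had a site (56.0%, 37.1 to 73.3%), and among proteasome subunits 15 of 34 (44.1%, 28.9 to 60.5%). Without chromosome 8 the values were the same for the splicing factors and 14 of 32 for the proteasome. Hnrnpab had 2 sites at its start region, one with both co-repressors at chr11:51606048-51606247 and one with NCoR only at chr11:51606878-51607077, 445 and 385 bp from H3K27ac. Hnrnpul2, at 8 bp, and the splicing regulator Srsf11, at 107 bp, lay closer, and Hnrnpa3 and Hnrnpc had SMRT-only sites at 518 and 189 bp. For the proteasome, sites lay at the base and lid genes Psmd1, Psmd12, Psmc3 and Psmc6 and at the core genes Psma3 and Psma7, 51 to 390 bp from H3K27ac. The immunoproteasome gene Psmb9 and the thymic subunit gene Psmb11 had a site and no H3K27ac.

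The machinery of respiration and translation was acetylated at most members and carried sites at about the share of all acetylated genes or below it. Oxidative phosphorylation genes had a site at 22 of 76 acetylated members (28.9%, 20.0 to 40.0%), or 21 of 74 without chromosome 8, with the complex I subunit genes Ndufb10, Ndufa13, Ndufv2, Ndufb1 and Ndufb3 and the ATP synthase gene Atp5e among them. Translation initiation factors and their regulators had sites at 15 of 49 (30.6%, 19.5 to 44.5%), or 14 of 48 without chromosome 8, such as Eif2s2, Eif4a2 and the 4E-binding protein gene Eif4ebp2. Mitochondrial ribosomal proteins had sites at 12 of 65 (18.5%, 10.9 to 29.6%), or 12 of 64 without chromosome 8, including Mrpl48 with 2, and cytosolic ribosomal proteins at 13 of 80 (16.3%, 9.75 to 25.8%), or 12 of 77 without it, including Rpl23, Rpl8 and Rps25. Of the same 80 acetylated cytosolic ribosomal protein genes 43 had a day 9 site (53.8%), where 42.4% of all genes acetylated in ESCs had one. Growth genes known as MYC targets had ESC sites at 2 of 17 acetylated members (11.8%, 3.29 to 34.3%), an interval that includes the 27.02%. The 2 were Ncl, a nucleolar protein with 2 sites, and Pa2g4, a regulator of proliferation. Day 9 sites were at 10 of the same 17 (58.8%), against 42.4% of all genes acetylated in ESCs.

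Of 20 pluripotency transcription factors 16 had H3K27ac and 2 of these also had a site (12.5%, 3.50 to 36.0%), or 2 of 14 without chromosome 8. These were Klf5, with a site at chr14:99298873-99299072, 204 bp from H3K27ac, and the zinc finger gene Zfp281, at 224 bp. Pou5f1, which encodes OCT4, Klf2, Etv5 and Tfcp2l1 had the highest H3K27ac score at an end and no site there, although 2 sites lay in the gene body or 20 kb around it for Pou5f1 and 1 each for Klf2 and Etv5. Among 20 effector genes of pluripotency 13 had H3K27ac and 5 of these also a site (38.5%, 17.7 to 64.5%). The intervals of both lists overlap and include the 27.02% of all acetylated genes. The 5 effectors were the growth factor gene Fgf4, the chromatin factor gene Utf1, Lin28b, which blocks let-7 maturation, the alkaline phosphatase gene Alpl and Dnmt3b. At Alpl a SMRT-only site lay 5 bp from H3K27ac, at Fgf4 an NCoR-only site 428 bp from it, and the 2 sites of Dnmt3b lay 240 and 79 bp from a peak with a score of 20.5. The methylcytosine dioxygenase genes Tet1 and Tet2 and the heterochromatin gene Trim28 had H3K27ac without a site, and Tet3 had both, 330 bp apart, so that 2 of 6 acetylated genes of DNA methylation and demethylation had a site, Dnmt3b and Tet3. Stat3, the mediator of LIF signals, was the only one of 10 acetylated signalling genes with a site.

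Genes of the co-repressor machinery were mostly acetylated themselves. Tbl1xr1, an exchange factor of the NCoR/SMRT complex, had H3K27ac and a site, 913 bp from the nearest H3K27ac centre. Ncor1, Hdac3 and Gps2 had H3K27ac alone, and Tbl1x had neither at its ends. All 18 genes of other co-repressor complexes had H3K27ac and 5 had a site, of which Gatad2a, Sap30 and Sin3b are on chromosome 8. Without that chromosome 2 of 15 remained, the deacetylase gene Hdac2, at 421 bp, and the histone chaperone gene Rbbp4, at 185 bp. The 2 sites of Sap30 lay 1724 and 1182 bp from the nearest H3K27ac centre, on the other side of the 1 kb limit for distance although the gene counted as having both. Of 15 nuclear receptor genes with H3K27ac, 14 of them off chromosome 8, 3 had a site (20.0%, 7.05 to 45.2%). They were the orphan receptors Nr2c2, at 2 bp, Nr2c1, at 81 bp, and Nr6a1, at 344 bp. All 3 had a day 9 site, as had 7 of the 15 and 59.1% of all genes with both. The REV-ERB gene Nr1d1, whose product recruits NCoR, had H3K27ac alone. Of 6 acetylated circadian clock genes 1 had a site, the repressor gene Cry1, 255 bp from H3K27ac.

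Of 63 clustered histone genes 1 had a site, H2bc6, with a SMRT-only site and no H3K27ac at its ends. Of the 41 with H3K27ac, 3 had a day 9 site (7.32%), against 42.4% of all genes acetylated in ESCs. None of these 41 had an ESC site (upper limit 8.57%), which lies below the 27.02% of all acetylated genes. Smaller lists with few or no sites had intervals that include that share. They were the lineage transcription factors, with 0 of 9 (upper limit 29.9%) and 0 of 7 without chromosome 8, the glycolysis genes, with 0 of 10 (upper limit 27.8%), and the HOX genes, with 1 of 13 (1.37 to 33.3%). The HOX gene was Hoxb2, 146 bp from a peak with a score of 11.4. The numbered zinc finger genes, a large family with many repressors of transposons, had sites at 64 of 261 acetylated members (24.5%, 19.7 to 30.1%), and 57 of 241 without chromosome 8, near the share of all acetylated genes. Olfactory receptor genes, which are known for their expression in the sensory neurons of the nose, had a site at 3 of 1106, and at 2 of 1101 without chromosome 8. Epithelial genes had sites at 3 of 8 acetylated members, the adhesion gene Epcam, the tight junction gene Ocln and the splicing regulator Esrp2 (2 of 6 without chromosome 8), and fibroblast genes at 1 of 5, the transcription factor gene Zeb1. Cdh1, which encodes E-cadherin, had 12 H3K27ac peaks in its gene body and 20 kb around it and no site at an end, although 1 site lay in that same stretch. The immediate early genes, which respond to growth factors, had sites at 4 of 15 acetylated members, Ier2, Jun, Dusp1 and Nr4a2 (3 of 13 without chromosome 8).

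**Figure D4:**
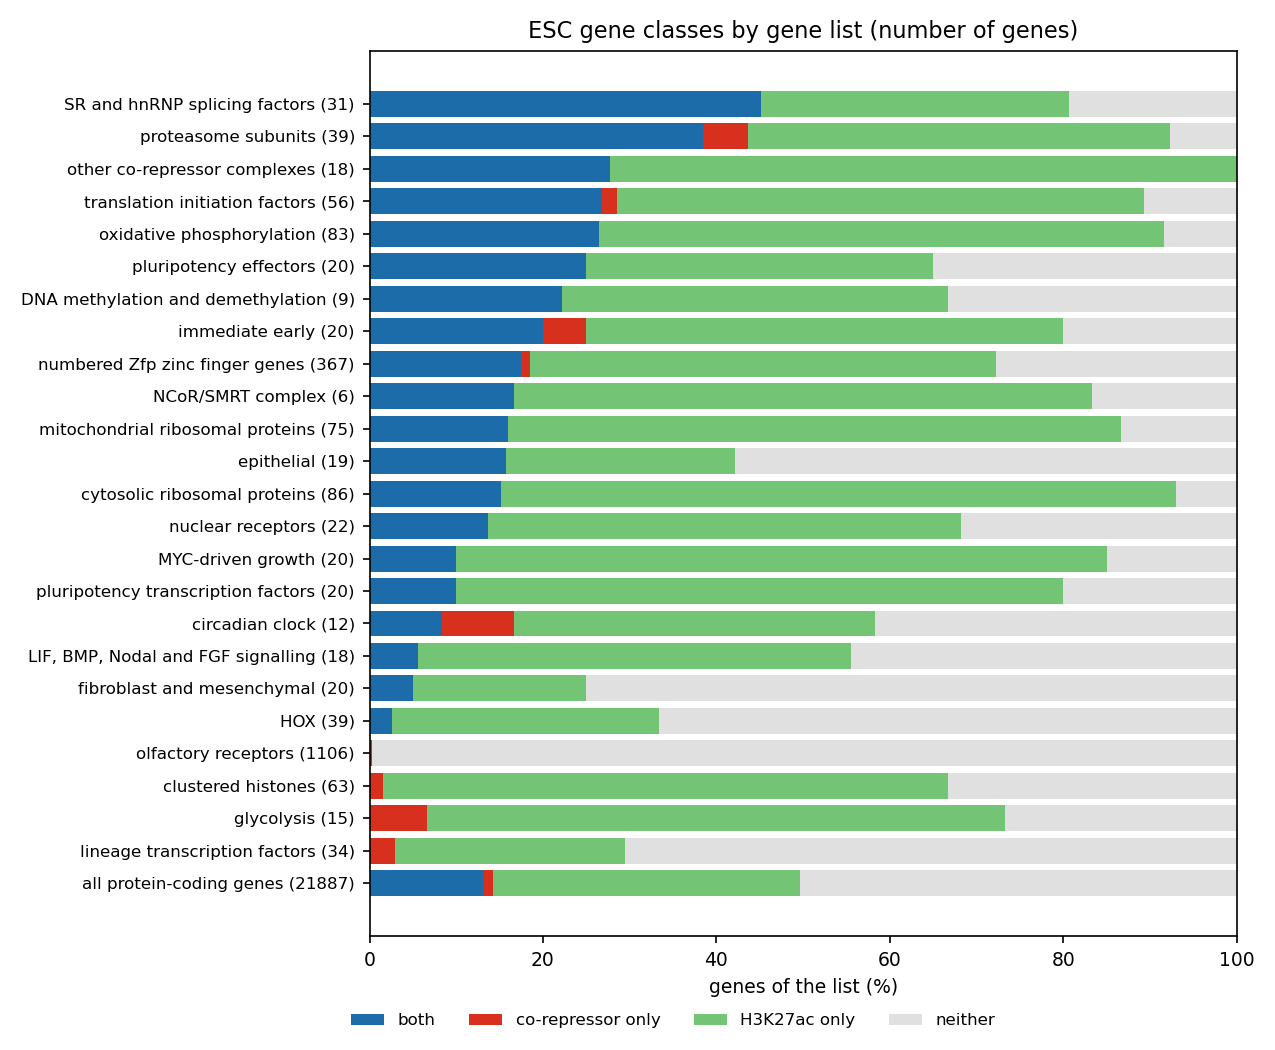
Share of the genes of each list (%) with both a co-repressor site and H3K27ac at an end (blue), a site only (red), H3K27ac only (green) or neither (grey), with the number of genes in brackets and all protein-coding genes at the bottom. The splicing factor and proteasome bars have the most blue, 45.2% and 38.5% against 13.1% of all genes, and clustered histones, glycolysis genes and lineage transcription factors have none.

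The 240 genes with a site and no H3K27ac were a mixed group. Their gene-end site lay a median of 31236.5 bp from the nearest H3K27ac centre, with quartiles of 7737 and 83990 bp, but at 28 genes a centre was within 1 kb of the site although more than 1 kb from the gene end. Jund, at 325 bp, Clock, at 421 bp, and the hexokinase gene Hk2, at 445 bp, were of that kind. Of the 185 with a start in the promoter table, 22 (11.9%, 7.99 to 17.3%) had H3K27ac within 1 kb of a listed start that is not the annotated gene end. Clock is one of them, with H3K27ac 258 bp past the start printed above and 14 bp past another. No H3K27ac peak lay in the gene body or 20 kb around it at 102 of the 240 genes (42.5%), against 62.7% of the genes with neither. Genes with the most distant acetylation follow. Neto1, an auxiliary subunit of kainate receptors, had an NCoR-only site 892655 bp from H3K27ac, and the glutamate receptor gene Grm7 one at 800190 bp. Unc5c had a site with both co-repressors at 703827 bp, and Foxa2, a pioneer factor of endoderm, an NCoR-only site at 629093 bp. That Foxa2 site lay 997 bp from a gene end, just inside the 1 kb limit, and not at a listed start. Further such genes were the axonemal dynein gene Dnah9, Arhgef5, Astn2, Lrrn1 and Foxi2, at 305583 to 358091 bp. At Arhgef5 and Unc5c the MEFs had H3K27ac, and at Arhgef5 and Dnah9 a day 9 site lay at the same gene.

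The 3571 sites with H3K27ac within 1 kb and the 1674 sites without it differed in several readouts. A gene end lay at 75.6% of the sites with H3K27ac and at 13.9% of those without (12.3 to 15.7%), and the median distance to a gene end was 404 bp with H3K27ac and 14325.5 bp without. Inside a protein-coding gene body lay 88.3% of the sites with H3K27ac and 60.8% of those without. A day 9 site was within 1 kb of 52.6% of the sites with H3K27ac (51.0 to 54.3%) and of 4.30% of those without (3.43 to 5.38%). The same held within position, with 58.3% of sites with H3K27ac and 9.44% of sites without at gene ends, and 35.1% of sites with H3K27ac and 3.47% of sites without away from them. MEF H3K27ac lay within 1 kb of 85.02% of the sites with ESC H3K27ac and 9.38% of those without. Sites with both co-repressors made up 65.7% of the sites with H3K27ac and 25.1% of those without. Within the NCoR-only sites the median deposited score was 1.31 with H3K27ac and 1.46 without. Within the SMRT-only sites it was -1.35 with H3K27ac and -1.56 without. In both kinds the sites without H3K27ac thus lay further to their own end of the signed score, whose meaning is not stated. The scores started at -0.990 in the NCoR list and ended at 0.998 in the SMRT list, so kind and score were not separate readouts. The 5 most isolated sites lay 911013 to 1959297 bp from H3K27ac, and 3 of them were NCoR-only. At the other end, the site with the most H3K27ac around it had 5 centres within 5 kb and lay at chr10:108292862-108293061, 12976 bp from an end of Ppp1r12a, a myosin phosphatase subunit.

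The classes were then read in the other libraries, which took no part in defining them. In MEFs, where 48.2% of all genes had H3K27ac, it was present at 92.9% of the genes with both in ESCs (91.9 to 93.8%), at 30.8% of those with a site only (25.3 to 36.9%), at 86.4% of those with H3K27ac only (85.6 to 87.1%) and at 9.95% of those with neither. A day 9 co-repressor site was present at 59.1% of the genes with both (57.3 to 60.9%), 7.92% of those with a site only (5.13 to 12.0%), 36.2% of those with H3K27ac only (35.1 to 37.3%) and 1.66% of those with neither, against 21.5% of all genes. Part of the difference between the acetylated classes went with the height of the score. The highest score at a gene's ends was at the ceiling for 68.9% of the genes with both and 44.9% of those with H3K27ac only. Among genes at the ceiling a day 9 site was present at 68.6% of those with both (66.5 to 70.6%) and 54.2% of those with H3K27ac only (52.5 to 55.8%), and among genes below the ceiling at 38.1% of those with both (35.02 to 41.37%) and 21.6% of those with H3K27ac only (20.4 to 22.8%). The shares with MEF H3K27ac were closer, at 97.9% of genes with both and 96.8% of those with H3K27ac only at the ceiling, and at 81.9% of genes with both and 77.9% of those with H3K27ac only below it. In the 6 OSKM H3K27ac lists the genes with both had H3K27ac in 87.7 to 93.5%, the genes with a site only in 12.5 to 31.3% and the genes with H3K27ac only in 76.2 to 79.7%. Of the genes with a site only, 119 (49.6%) had H3K27ac in no MEF or OSKM list (43.3 to 55.9%). Among the genes with neither, which also lack ESC H3K27ac, the share was 84.2% (83.5 to 84.9%), and among all protein-coding genes 45.6%. It was so at 61 (2.12%) of the genes with both and at 6.74% of those with H3K27ac only.

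**Figure D5:**
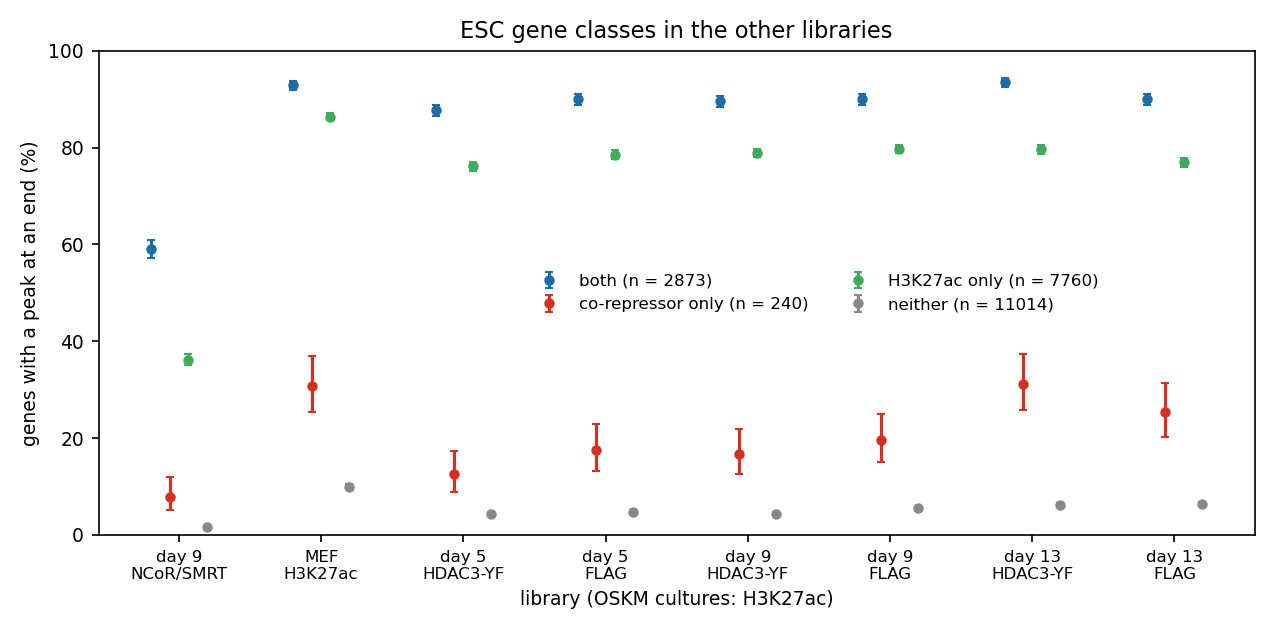
Share of genes of each ESC class (%) with a peak at an end in the other libraries, for day 9 NCoR or SMRT sites, MEF H3K27ac and H3K27ac of OSKM cultures with HDAC3-YF or FLAG at days 5, 9 and 13, with 95% Wilson intervals. The genes with both lie above those with H3K27ac only in every library, and the genes with a site only lie between 7.92% and 31.3%.

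Promoter sequence differed between the classes in CpG content. Over the 300-base windows the median number of CpG dinucleotides (letters CG) was 25 for genes with both, 15 for genes with a site only, 21 for genes with H3K27ac only and 4 for genes with neither, and the median GC content was 64.0%, 60.3%, 61.0% and 49.3%. A window with 15 or more CpG was present at 85.2% of 2337 genes with both (83.7 to 86.6%), 53.5% of 185 with a site only (46.3 to 60.6%), 73.7% of 6251 with H3K27ac only (72.6 to 74.8%) and 18.2% of 8719 with neither, and at 47.4% of all. In the windows printed above, Clock and Hnrnpdl had 42 CpG each, Hdac2 36, Dnmt3b 30, Unc5c 24 and Psmd12 20.

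Motifs were counted as exact letters on either strand in the same windows, as a description that says nothing of whether a factor was bound. The ETS letters CCGGAAG were in 20.1% of the windows of genes with both (18.5 to 21.7%), 5.95% of those with a site only (3.35 to 10.3%), 19.5% of those with H3K27ac only (18.6 to 20.5%) and 11.9% of all. Genes with neither had them in 4.37%. In CpG-rich windows the shares were 22.0% for both, 8.08% for a site only (4.15 to 15.1%) and 22.3% for H3K27ac only. Genes with neither were at 11.1% there (9.61 to 12.7%), so the low share was common to the 2 classes without H3K27ac. The window of Psmd12 holds these letters on the opposite strand, inside the capitals. The NRF1 letters GCGCATGCG were in 5.65% of the windows for both (4.78 to 6.66%), 1.08% for a site only and 3.70% for H3K27ac only (3.26 to 4.19%). They were in 0.642% of the windows for neither and 2.41% of all, and are found in the window of Clock. The letters AGGTCA, the core that nuclear receptors recognise, were in 10.4% of the windows of genes with both (9.18 to 11.7%), 15.1% of those with a site only (10.7 to 21.0%), 11.7% of those with H3K27ac only (10.9 to 12.5%) and 14.5% of all. In CpG-rich windows those shares were 8.89% for both, 7.07% for a site only and 9.92% for H3K27ac only. The E-box CACGTG, which MYC and CLOCK recognise, was in 10.6% for both (9.43 to 11.9%), 8.11% for a site only (4.98 to 12.9%) and 10.8% for H3K27ac only (10.1 to 11.6%), against 7.90% of all. The TATA letters TATAAA were in 4.88% for both, 4.86% for a site only and 6.72% for H3K27ac only, against 20.5% of windows of genes with neither and 13.3% of all. The GC box GGGCGG was in 71.9% for both, 62.2% for a site only and 66.6% for H3K27ac only, and in 46.3% of all. In CpG-rich windows the GC box was in 78.3% for both, 82.8% for a site only, 77.5% for H3K27ac only and 75.9% for neither. The E-box was there in 11.2% for both, 12.1% for a site only, 12.0% for H3K27ac only and 10.9% for neither. The TATA letters were there in 3.62% for both, 2.02% for a site only, 4.84% for H3K27ac only and 6.54% for neither. Windows were taken from 1 listed start per gene, so a site at another start or at the 3′ end of a gene lies outside them.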

How the data were processed

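The files were peak lists in BED format, 1 per library. Per the submitters' processing notes the processing used Bowtie2 2.2.0, MACS 1.4 and mm10, without settings. Every deposited interval is 200 bp wide. The deposited score of the authors is signed in the NCoR and SMRT lists and runs to a ceiling of 200 in the H3K27ac list, and its scale is not stated, so it was used only to rank peaks within a list. No source used here gives the read depth.

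Overlapping NCoR and SMRT intervals were merged to sites, and distances were taken between centres. Genes were the 21887 protein-coding genes of a RefSeq gene table (GRCm38.p6) on the placed chromosomes, with both annotated ends and a window of 1 kb. Starts and promoter sequences came from the RefSeq promoter table of the same build, matched by gene ID for 17492 genes. Shares carry 95% Wilson intervals (statsmodels 0.14.6), and the median's alternatives were read against its order-statistic interval. The code was tested on simulated intervals at known distances. Python 3.11.15, numpy 2.4.6 and pandas 2.3.3 were used.

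The groups, the 24 gene lists and the 12 motifs were chosen with earlier results of these data known. The named genes were up to 6 per list with a site (by sites, then H3K27ac peaks, in the gene body and 20 kb around it) and up to 4 with H3K27ac only, the 10 genes with both that had the most sites, the 10 with a site only that were farthest from H3K27ac, and the 5 sites with the most and the 5 with the least H3K27ac around them. Some genes that this rule names are not reported here. Psmb9 and Psmb11 were named after their values were seen. Alternatives were other windows, starts only, sites with both co-repressors, the top 50% of H3K27ac peaks, merged H3K27ac peaks, edges instead of centres, other distance limits, direct overlap and all annotated genes. Leaving out chromosome 8, and all alternatives for shares of genes and of scores, were added after the data were examined.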

Additional observations from a re-analysis of the deposited data

How the results depend on the processing

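No paired analysis was possible because each group has 1 library and no test was made. The gene count with a site only (240 of 21887) was 97 with sites of both co-repressors and 533 with the top 50% of H3K27ac peaks. Over all annotated genes it was 376 of 49943. The counts of genes with both (1996 to 3380) and with H3K27ac only (5940 to 10167) stayed within 1.5 times under every alternative run. These are counts out of unlike totals, since starts only covered 17492 genes and all annotated genes 49943. The share of sites with H3K27ac within 1 kb (68.1%) was 84.8% for sites with both co-repressors, 57.2% with the top 50% of H3K27ac peaks, 60.5% within 500 bp, 70.3% within 2.5 kb, 36.3% by overlap of 1 bp and 20.1% by overlap of 50%. The median distance (317 bp, 302 to 333) was 214 bp for sites with both, 475 bp with the top 50% and 117 bp between edges. Without chromosome 8 these were 68.5% and 306 bp. The share of site genes with H3K27ac (92.3%) was 86.6% at 500 bp, 93.5% at starts only, 95.4% for sites with both, 82.9% with the top 50% and 89.9% over all annotated genes, and that of H3K27ac genes with a site (27.02%) was 23.1% at 500 bp, 28.5% at 2.5 kb, 18.8%, 30.3% and 24.8% in the last 3 settings, and 25.4% without chromosome 8. The shares of H3K27ac peaks at the ceiling kept their order. With sites of both co-repressors they were 69.3% with a site and 43.4% without at gene ends, and 47.0% with a site away from them. Over all annotated genes the shares without a site were 37.2% at gene ends and 8.02% away. Of 187 named genes, 129 kept their class with 500 bp around ends and 152 with sites of both co-repressors. With 1 library per group, unknown depth and intervals of fixed width, no value here has a spread between cultures, and the extent of acetylated domains and the height of co-repressor peaks were not measured.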

Other observations

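Non-coding genes were near some of the sites. An end of a lncRNA gene lay within 1 kb of 12.0% of the 3571 sites with H3K27ac (11.01 to 13.15%) and of 5.38% of the 1674 sites without (4.39 to 6.56%). An end of a miRNA gene lay near 24 sites with H3K27ac and 2 without, and a tRNA gene near 11 with H3K27ac and 0 without (upper limit 0.229%). Pseudogene ends went the other way, near 0.504% of the sites with H3K27ac (0.319 to 0.795%) and 1.37% of those without (0.917 to 2.05%).

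Genes with both were longer than genes with H3K27ac only, with median lengths of 27986 and 21162.5 bp, and both classes had a median of 2 H3K27ac peaks in the gene body and 20 kb around it. On chromosome 8 the sites with both co-repressors made up 63.3% of the sites (59.6 to 66.8%), against 51.2% elsewhere (49.7 to 52.6%).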
